A study of Homo sapiens with 36 samples.

Results

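The expression of 10 immediate early transcription factor genes was followed in human neural stem cells after gain or loss of MEIS1 or MEIS2: FOS, FOSB, FOSL1, FOSL2, JUN, JUNB and JUND, which encode the subunits of AP-1, and EGR1, EGR2 and EGR3. The genes were taken by name from a table of 28516 gene symbols, and all 10 passed the filter of at least 10 counts summed over the libraries, as 19689 genes did. Poly-A RNA of hNSC, a commercial line of human neural stem cells, was sequenced in 36 libraries, 6 for each of 6 conditions. Under activation (MEIS1-OE and MEIS2-OE, labelled CRISPRa_MEIS1 and CRISPRa_MEIS2) the gene was activated from its own promoter by lentiviral sgRNA(MS2)_puro, dCAS-VP64_Blast and lentiMPHv2, that is, a Cas9 that does not cut and recruits transcriptional activators. Under knockout (MEIS1-KO and MEIS2-KO, labelled CRISPR-KO_MEIS1 and CRISPR-KO_MEIS2) the gene was cut by lentiCRISPRv2, with a pair of guide vectors mixed in equal parts, and the transduced cells were harvested as a pool. The controls ctrl-OE (CRISPRa_ctrl) and ctrl-KO (CRISPR-KO_ctrl) carried the respective vectors with guides that target no gene, so each system has a control of its own and no condition is free of virus. All cells were released with Accutase and harvested 48 h after transduction. The 6 libraries of a condition come from 1 cell line and their labels name no separate donors, so p-values measure the spread between these samples, which may be technical.

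AP-1 is a dimer of basic leucine zipper proteins: the JUN proteins pair with each other or with a FOS protein, whereas the FOS proteins need a JUN partner to bind DNA. FOS, FOSB, JUNB and the EGR genes are textbook immediate early genes, whose transcription rises within minutes of growth factor signalling, serum or mechanical and chemical stress without new protein synthesis and falls again as fast, while FOSL1 and FOSL2 follow later and are kept up by lasting ERK signalling. The EGR genes encode zinc finger factors that are switched on by SRF and its ETS partners at CArG boxes, and in the nervous system FOS and EGR1 are read as marks of recent stimulation.

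Promoter sequences are shown for EGR1, EGR2 and FOS, whose levels moved together between libraries, and for FOSL2, which was raised in the most MEIS comparisons. Each is the 250 bases before a RefSeq start site on GRCh38.p14 in the direction of transcription, and the capitals mark CArG boxes in EGR1 and EGR2 and the letters TGACGT in FOS and FOSL2. The EGR1 promoter is at chr5:138465229-138465478 on the plus strand, that of EGR2 (its start nearest to the 3′ end of 3) at chr10:62816367-62816616 on the minus strand, that of FOS at chr14:75278578-75278827 on the plus strand and that of FOSL2 at chr2:28392608-28392857 on the plus strand.
EGR1: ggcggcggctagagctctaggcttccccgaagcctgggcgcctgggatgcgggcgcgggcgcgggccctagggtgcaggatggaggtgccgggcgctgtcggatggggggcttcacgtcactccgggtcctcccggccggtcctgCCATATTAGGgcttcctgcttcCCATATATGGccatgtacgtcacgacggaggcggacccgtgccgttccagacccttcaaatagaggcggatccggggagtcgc
EGR2: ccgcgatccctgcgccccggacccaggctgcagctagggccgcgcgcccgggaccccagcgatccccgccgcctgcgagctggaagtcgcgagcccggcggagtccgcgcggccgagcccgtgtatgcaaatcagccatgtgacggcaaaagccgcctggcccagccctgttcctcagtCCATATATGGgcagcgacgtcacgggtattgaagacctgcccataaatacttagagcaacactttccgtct
FOS: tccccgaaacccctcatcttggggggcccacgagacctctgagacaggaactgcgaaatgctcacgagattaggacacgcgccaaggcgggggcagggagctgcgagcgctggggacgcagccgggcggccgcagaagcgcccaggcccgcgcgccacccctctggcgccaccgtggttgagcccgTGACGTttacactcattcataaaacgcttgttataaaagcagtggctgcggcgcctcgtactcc
FOSL2: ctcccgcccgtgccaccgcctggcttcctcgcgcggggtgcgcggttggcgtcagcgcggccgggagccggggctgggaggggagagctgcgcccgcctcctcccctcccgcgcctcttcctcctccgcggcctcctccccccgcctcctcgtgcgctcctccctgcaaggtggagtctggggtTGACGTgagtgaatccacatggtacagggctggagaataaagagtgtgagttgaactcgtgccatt
RefSeq promoters were matched for 8 of the 10 genes besides FOSL1 and EGR3, which are not shown. The 2 CArG boxes of EGR1, CCATATTAGG and CCATATATGG, lie 105 to 96 and 83 to 74 bases before the start, and the box of EGR2 lies 71 to 62 bases before its start. A CArG box is found in 1.16% of 35116 promoters of this length when both strands are searched. TGACGT, the core letters of a CRE, occurs 64 to 59 bases before the start of FOS and 66 to 61 bases before that of FOSL2, as well as in FOSB, JUND, EGR1 and EGR2, and is held by 7.1% of promoters. JUN has TGACATCA 67 to 60 bases before its start, a match to TGACNTCA, which 6.87% of promoters hold and which overlaps TGACGT where the N is a G, as in JUND. The letters TGANTCA of the classical AP-1 site (6.57% of promoters) are in none of these windows, and those of the MEIS core TGACAG (13.0%) are in JUNB alone, 143 to 138 bases before the start. GCGNGGGCG, the EGR motif (8.41%), is matched once, in EGR1 itself. These are matches of letters and no measured binding. Only these 250 bases were searched, so a motif without a match here, such as the CArG box in FOS, may lie further upstream.

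Depth and identity were checked first. The libraries held between 15429985 and 22940493 counts. MEIS1 was at 15.7 to 18.8 CPM (counts relative to the library size, scaled by TMM) in ctrl-OE and 287 to 323 CPM in MEIS1-OE, and at 23.7 to 28.0 CPM in ctrl-KO and 6.43 to 11.2 CPM in MEIS1-KO. MEIS2 was at 20.5 to 24.1 CPM in ctrl-OE and 793 to 852 CPM in MEIS2-OE, and at 23.5 to 27.4 CPM in ctrl-KO and 10.5 to 13.4 CPM in MEIS2-KO. Of 9 neural stem cell markers 8 had a mean of at least 1 CPM in every condition, SOX2 and NES among them, whereas HES5 stayed below 1 CPM in each condition's mean. Defining genes of other cells were near 0 (GFAP at most 0.457 CPM, STMN2 at most 0.347 CPM and PTPRC at most 0.116 CPM in any library), but the mesenchymal genes COL1A1 (24.0 to 102 CPM) and COL3A1 (143 to 748 CPM) were not. Several libraries held extreme values of these genes. MEIS1-OE replicate 3 held the lowest value of its condition for 9 of the 10 genes at a total of 19063404 counts. MEIS1-OE replicate 6 held the highest for 8 of them, and ctrl-OE replicate 6 and ctrl-KO replicate 4 for 6 each. Calls that changed when MEIS1-OE replicate 3 or ctrl-OE replicate 6 was left out are given with and without that library. MEIS1-OE replicate 6 and ctrl-KO replicate 4 were not left out on their own.

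Expressed per kilobase of exon, EGR1 led in each condition's mean. In ctrl-OE it was at 102 ± 12.5 CPM per kb (SD, n = 6), ahead of JUND at 24.3 ± 4.86, JUN at 7.85 ± 2.08 and FOSL1 at 7.08 ± 0.523 CPM per kb. FOSB closed the order there at 0.383 ± 0.0637 CPM per kb. The ranges of EGR1 and JUND were apart in ctrl-OE and MEIS2-OE. In ctrl-KO the ranges of the first 2 overlapped (EGR1 39.1 ± 21.9, JUND 26.1 ± 1.83 CPM per kb), and so they did in MEIS1-OE, MEIS1-KO and MEIS2-KO. JUN and FOSL1, the next 2, overlapped in all 6 conditions. EGR2 ranked 8 of 10 in the 3 OE conditions and 5 of 10 in ctrl-KO, at 2.54 ± 0.713 CPM per kb. Exon lengths came from a GENCODE annotation of GRCh37 and may differ from the one used for counting.

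**Figure D1:**
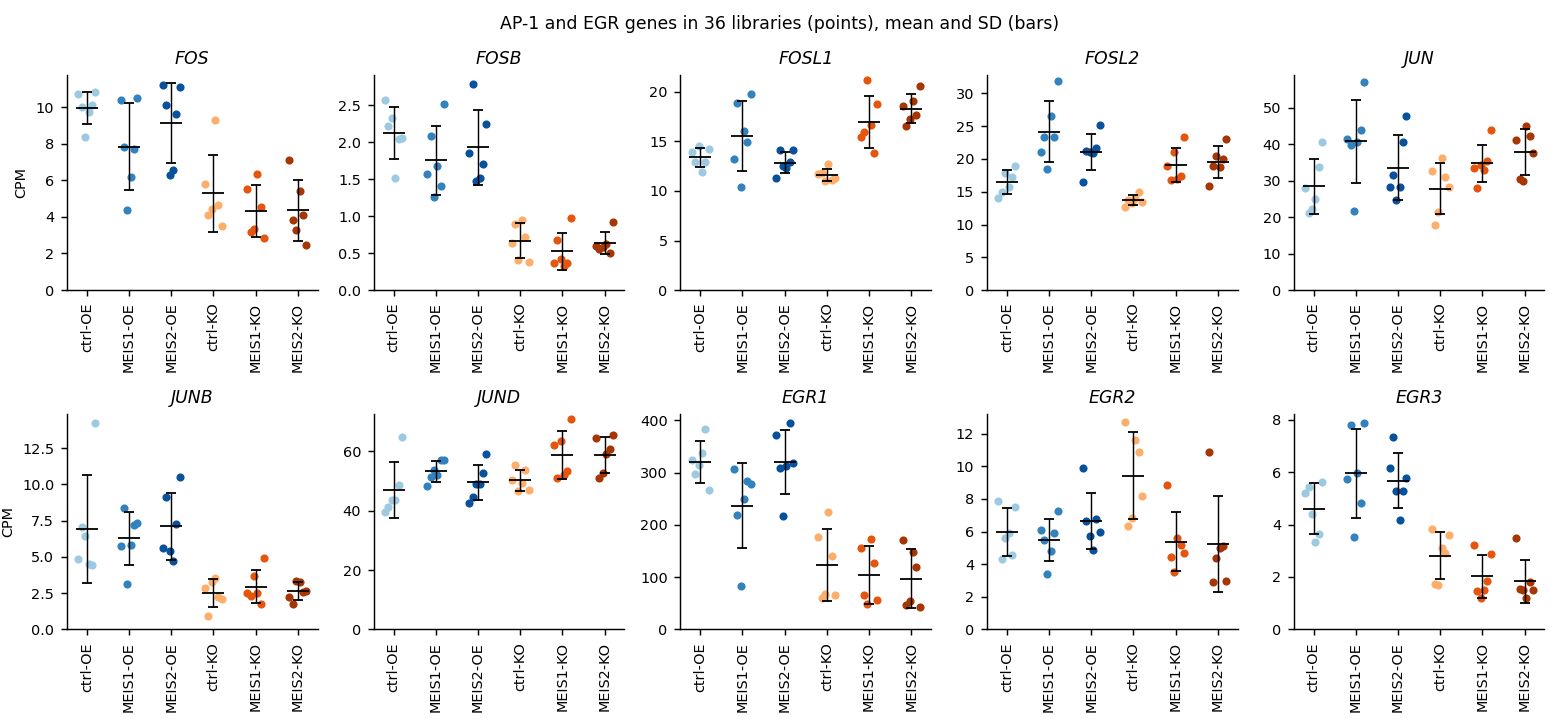
Level of each gene in the 36 libraries in CPM, 1 point per library, with the mean and SD of the 6 libraries of a condition as bars, on axes that start at 0. EGR1 falls into a high and a low set of 3 libraries in each KO condition, and FOSL1 lies higher in both knockouts (13.8 to 21.2 CPM) than in ctrl-KO (11.0 to 12.7 CPM).

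Few of the genes changed with MEIS1 or MEIS2, and the genes that did were FOSL1, FOSL2 and EGR2. A gene was called at an adjusted p under 0.05 by the quasi-likelihood test of edgeR, adjusted after Benjamini and Hochberg over all 19689 tested genes, and all adjusted p in the text are from this test unless another is named. In MEIS1-OE relative to ctrl-OE 1 of the 10 genes passed, FOSL2, near the share of 9.1% of all tested genes, and 3 had an unadjusted p under 0.05. With a limit of 0.58 on the absolute log2 fold change besides, edgeR called 0 of 10 in MEIS1-OE and in MEIS1-KO, where 2.84% and 0.29% of all genes passed. In MEIS2-OE edgeR called 0 of 10 (1 with an unadjusted p under 0.05, and DESeq2 called 1, FOSL2, with an adjusted p of 0.0481) where 1.35% of all genes passed. Libraries of MEIS2-OE and ctrl-OE with the same replicate number deviated together. With the number as a block in the fit edgeR called 1 there, FOSL2 (adjusted p = 0.00734). In MEIS1-KO 2 of 10 passed, FOSL1 and FOSL2, against 1.46% of all genes, and the same 2 did not overlap between the groups, against 1.39%. In MEIS2-KO 3 of 10 passed, FOSL1, FOSL2 and EGR2, against 10.0% of all genes, and 2 did not overlap, against 6.44%. Of the 9 neural stem cell markers 5 passed there as well, 1 higher and 4 lower, among them PAX6, SOX1 and FABP7. The median log2 fold change of the 10 genes was between -0.01 and 0.06 in these 4 comparisons, and that of all tested genes between -0.01 and 0.00.

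Among the FOS genes, FOSL1 and FOSL2 rose in both knockouts, and FOS and FOSB did not pass the test in any comparison of a MEIS condition with its control. FOSL1 (GRCh37 chr11:65659520-65668044) encodes FRA1, a FOS protein without the strong activation domain of FOS. Its level in ctrl-KO had a lowest, median and highest value of 11.0, 11.5 and 12.7 CPM, compared with 13.8, 16.3 and 21.2 CPM in MEIS1-KO and 16.5, 18.2 and 20.6 CPM in MEIS2-KO. Every knockout library was above every ctrl-KO library. The log2 fold change was 0.55 (SE 0.11, adjusted p = 0.00229) in MEIS1-KO and 0.66 (SE 0.10, adjusted p = 6.5e-05) in MEIS2-KO. In bulk libraries such as these, a change in the number of cells that express a gene and a change in RNA per cell cannot be told apart. In the OE conditions FOSL1 had 11.9, 13.4 and 14.5 CPM in ctrl-OE, 10.4, 15.4 and 19.8 CPM in MEIS1-OE and 11.3, 12.7 and 14.1 CPM in MEIS2-OE. In MEIS1-OE 4 of 6 libraries were above all of ctrl-OE, while its replicate 3 was below all of them. The log2 fold change in MEIS1-OE was 0.22 (SE 0.10, adjusted p = 0.214), which passed once MEIS1-OE replicate 3 was left out (0.31, adjusted p = 0.0187), and that in MEIS2-OE was -0.05 (SE 0.10, adjusted p = 0.983).

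FOSL2 (chr2:28615315-28640184), which encodes FRA2, was the gene of the set that was higher in each of the 4 manipulated conditions than in its control at every one of the 6 replicate numbers. Apart from MEIS2-OE with ctrl-OE, libraries of a number were not shown to be pairs. Counts over the numbers, here and below, only describe the values. Its lowest, median and highest values were 12.6, 13.7 and 14.9 CPM in ctrl-KO, 16.8, 18.1 and 23.3 CPM in MEIS1-KO and 15.8, 19.4 and 23.1 CPM in MEIS2-KO, with no overlap of either knockout with ctrl-KO. In the OE conditions they were 14.1, 16.5 and 18.9 CPM in ctrl-OE, 18.5, 23.4 and 31.9 CPM in MEIS1-OE and 16.5, 21.1 and 25.1 CPM in MEIS2-OE, where 5 of 6 libraries of either condition were above all of ctrl-OE. FOSL2 thus rose in MEIS1-OE (log2 fold change 0.55, SE 0.10, adjusted p = 1.9e-04), in MEIS1-KO (0.48, SE 0.11, adjusted p = 0.012) and in MEIS2-KO (0.51, SE 0.11, adjusted p = 0.0016). In MEIS1-KO the adjusted p was 0.085 when replicate number 3 was left out of all conditions. The increase in MEIS2-OE, 0.35 with an SE of 0.10, missed the threshold (adjusted p = 0.0979). Libraries of MEIS2-OE and ctrl-OE with the same number deviated together, and with the replicate number as a block in the fit FOSL2 passed in MEIS2-OE (0.35, adjusted p = 0.00734). The 2 OE conditions share ctrl-OE and the 2 knockouts share ctrl-KO, so the paired values are not independent of each other.

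FOS (chr14:75745529-75748933) and FOSB (chr19:45971253-45978437) passed between the 2 controls, where 51.4% of all tested genes passed and 31.8% did not overlap. FOS was at 8.35 to 10.8 CPM in ctrl-OE and 3.48 to 9.27 CPM in ctrl-KO, with a difference of 0.91 on the log2 scale (SE 0.22, adjusted p = 5.4e-04) and 5 of 6 ctrl-OE libraries above all of ctrl-KO. FOSB was at 1.52 to 2.57 CPM in ctrl-OE and 0.386 to 0.943 CPM in ctrl-KO, 1.67 higher on the log2 scale (SE 0.22, adjusted p = 4.5e-08) and without overlap. FOSB rests on few reads in the KO conditions, between 6 and 19 counts per library, and the gene overlaps ERCC1 on the other strand. Relative to their controls FOS was lower at 6 of 6 replicate numbers in both MEIS1-OE (log2 fold change -0.34, SE 0.21) and MEIS1-KO (-0.30, SE 0.24), and neither passed (adjusted p = 0.384 and 0.724). In neither comparison were the numbers shown to be pairs. Without MEIS1-OE replicate 3 the value of FOS in MEIS1-OE was -0.22. The values for FOS in MEIS2-OE and MEIS2-KO were -0.12 (SE 0.20) and -0.30 (SE 0.24), and those for FOSB in the 4 conditions lay between -0.33 and -0.07.

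With all libraries none of the JUN genes passed the test in a comparison of a MEIS condition with its control, and JUNB alone passed between the controls, joined by JUND without ctrl-OE replicate 6 (-0.22, adjusted p = 0.03). JUN (chr1:59242517-59249720), the founding partner of FOS, was at 21.1, 26.4 and 40.7 CPM (lowest, median and highest) in ctrl-OE and 21.8, 41.2 and 57.2 CPM in MEIS1-OE. The log2 fold change of 0.53 (SE 0.18, adjusted p = 0.059) came close to the threshold and passed it without MEIS1-OE replicate 3 (0.65, adjusted p = 0.00588) or without ctrl-OE replicate 6 (0.66, adjusted p = 0.0162). In both knockouts JUN was higher than in ctrl-KO (17.8, 29.7 and 36.2 CPM), with 28.1, 34.0 and 44.0 CPM in MEIS1-KO and 30.0, 39.4 and 45.1 CPM in MEIS2-KO. The ranges overlapped, and the log2 fold changes of 0.32 (SE 0.18, adjusted p = 0.54) and 0.44 (SE 0.18, adjusted p = 0.126) did not pass. JUND (chr19:18390504-18392432), the JUN gene that is expressed in most resting cells, had means between 46.9 and 58.9 CPM in the 6 conditions and log2 fold changes of 0.08 to 0.23 in the 4 comparisons with a control, and in MEIS1-OE it moved from 0.18 to 0.30 and passed (adjusted p = 0.0159) without ctrl-OE replicate 6. The confidence interval (95%) of its difference in MEIS2-KO was 0.04 to 0.41, with an adjusted p of 0.129. JUNB (chr19:12902300-12904129), often a brake on JUN, was at 4.42 to 14.2 CPM in ctrl-OE and 0.956 to 3.56 CPM in ctrl-KO, a log2 difference of 1.47 (SE 0.28, adjusted p = 3.7e-05) without overlap. Its value in ctrl-OE replicate 6 was 14.2 CPM and the next 7.03 CPM. Without that library the difference between the controls was 1.14 (adjusted p = 3.9e-04). The log2 fold change in MEIS1-OE then moved from -0.13 to 0.20 (adjusted p = 0.675). The intervals of the MEIS effects on JUNB reached from -0.62 to 0.36 in MEIS1-OE and from -0.37 to 0.87 in MEIS1-KO, so that effects of this size could not be seen. JUNB overlaps HOOK2 on the other strand, and whether strand was used in counting is not given in the sources used here. Whether reads of this pair, and of FOSB and ERCC1, were kept apart is therefore not known.

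**Figure D2:**
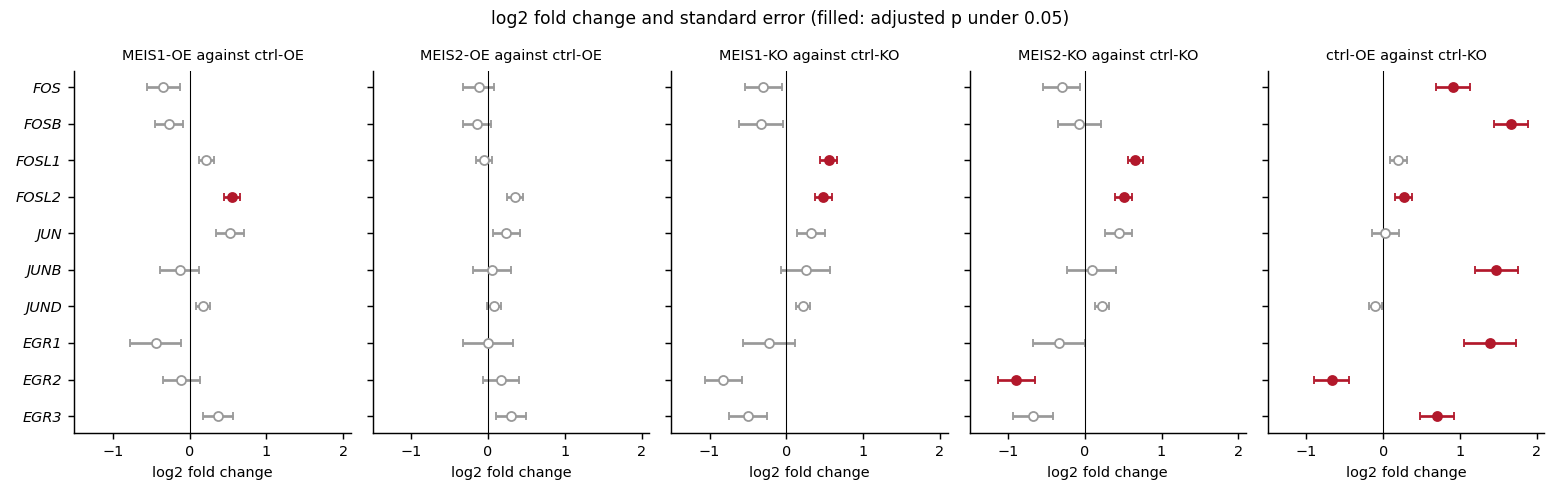
The log2 fold change (point) and its standard error (bar) of the 10 genes in the 4 comparisons of a MEIS condition with its control and in ctrl-OE against ctrl-KO, filled where the adjusted p is under 0.05. FOSL1 and FOSL2 lie to the right in both knockouts, EGR2 lies to the left in MEIS2-KO at -0.89 (SE 0.24), and 6 filled points lie to the right between the controls.

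EGR2 fell in MEIS2-KO, and EGR1 and EGR3 did not pass in a comparison of a MEIS condition with its control. EGR2 (chr10:64571756-64578927), known in neural tissue for hindbrain segments and Schwann cell myelination, was at 6.36, 9.55 and 12.7 CPM (lowest, median and highest) in ctrl-KO, 3.55, 4.93 and 8.83 CPM in MEIS1-KO and 2.92, 4.67 and 10.9 CPM in MEIS2-KO. In each knockout 5 of 6 libraries were below all of ctrl-KO, and each was below the ctrl-KO library of its number. The log2 fold change was -0.89 in MEIS2-KO (SE 0.24, adjusted p = 0.0126) and -0.82 in MEIS1-KO (SE 0.24, adjusted p = 0.0717). The call in MEIS2-KO was lost when replicate number 4 or 5 was left out of all conditions (adjusted p = 0.0757 and 0.0775), and EGR2 passed in MEIS1-KO when number 1 was left out (-0.91, adjusted p = 0.0125). In the OE conditions EGR2 had 4.32 to 7.86 CPM in ctrl-OE, 3.37 to 7.25 CPM in MEIS1-OE and 4.89 to 9.89 CPM in MEIS2-OE, with overlapping ranges. EGR3, on chromosome 8, was lower at 6 of 6 replicate numbers in both knockouts, with log2 fold changes of -0.50 (SE 0.25, adjusted p = 0.453) and -0.67 (SE 0.26, adjusted p = 0.0957), and higher by 0.37 (SE 0.20) and 0.30 (SE 0.20) in MEIS1-OE and MEIS2-OE, none of which passed.

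EGR1 (chr5:137801168-137804992), the most abundant of the EGR genes, was at 266, 319 and 383 CPM in ctrl-OE, 83.1, 264 and 307 CPM in MEIS1-OE and 217, 316 and 395 CPM in MEIS2-OE. In the KO conditions it was at 60.1, 104 and 225 CPM in ctrl-KO, 48.1, 96.4 and 174 CPM in MEIS1-KO and 43.7, 87.1 and 171 CPM in MEIS2-KO. Of the 18 OE libraries 3 were below the highest KO library, at 83.1, 217 and 219 CPM, and the remaining 15 were above all KO libraries. The log2 fold changes of EGR1 relative to the controls were -0.44 (SE 0.33) in MEIS1-OE, 0.00 (SE 0.33) in MEIS2-OE, -0.23 (SE 0.34) in MEIS1-KO and -0.34 (SE 0.34) in MEIS2-KO. Their adjusted p values were 0.53, 1, 0.886 and 0.604, with 95% intervals of -1.09 to 0.22 in MEIS1-OE and -0.90 to 0.43 in MEIS1-KO. Without MEIS1-OE replicate 3 the value in MEIS1-OE was -0.26 (adjusted p = 0.679). These standard errors include the spread that follows the replicate number in the KO conditions. With the number as a block in a fit of only MEIS2-KO and ctrl-KO, EGR1 passed in MEIS2-KO (-0.33, adjusted p = 8.8e-05), whereas with the block in the fit of all 6 conditions it did not. By replicate number EGR1 was lower than in ctrl-KO at 6 of 6 numbers in MEIS2-KO and at 5 of 6 in MEIS1-KO, though the numbers were not shown to be pairs.

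Between the paralogs no gene of the set passed the test. For MEIS1-OE against MEIS2-OE edgeR called 0 of 10 (1 with an unadjusted p under 0.05, and 0 by DESeq2), where 7.75% of all genes passed. The largest difference by p was that of FOSL1, 0.27 higher in MEIS1-OE on the log2 scale (95% interval 0.07 to 0.48, adjusted p = 0.109), and without MEIS1-OE replicate 3 it passed (0.37, adjusted p = 0.00587). For MEIS1-KO against MEIS2-KO edgeR and DESeq2 called 0 of 10, with 0 at an unadjusted p under 0.05, where 0.0152% of all genes passed. The differences between the knockouts were -0.11 for FOSL1 (95% interval -0.31 to 0.09), -0.03 for FOSL2 (-0.24 to 0.17) and 0.07 for EGR2 (-0.42 to 0.56).

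The contrast used in the study, the OE effect minus the KO effect, asks whether these effects differ, and a change in either alone can suffice. For MEIS1 edgeR and DESeq2 called 0 of 10 in this contrast (3 with an unadjusted p under 0.05 by edgeR), where 3.48% of all genes passed. For MEIS2 it called 1, FOSL1, at -0.71 (SE 0.15, adjusted p = 0.00295), where 2.57% of all genes passed, which combines the value of -0.05 in MEIS2-OE with that of 0.66 in MEIS2-KO. FOSL2, at 0.08 (SE 0.15) for MEIS1 and -0.15 (SE 0.15) for MEIS2, did not pass, being higher in gain and in loss. EGR2 and EGR3 had positive values for MEIS2 of 1.05 (SE 0.33, adjusted p = 0.0818) and 0.97 (SE 0.33, adjusted p = 0.111) that did not pass.

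The controls of the 2 systems differed in more of these genes than any MEIS condition did from its control. Between ctrl-OE and ctrl-KO 7 of the 10 genes passed, 6 higher in ctrl-OE (FOS, FOSB, FOSL2, JUNB, EGR1 and EGR3) and 1 lower (EGR2), but 51.4% of all tested genes passed there, 27.5% of all tested genes being higher and 23.9% lower. FOSB, JUNB and EGR1 did not overlap between the controls, 3 of 10 where 31.8% of all genes did not. The log2 difference was 1.39 (SE 0.34, adjusted p = 7.3e-04) for EGR1, 0.70 (SE 0.22, adjusted p = 0.00808) for EGR3, 0.27 (SE 0.11, adjusted p = 0.0359) for FOSL2 and -0.67 (SE 0.23, adjusted p = 0.0143) for EGR2. The median over the 10 genes was 0.48, and that over all tested genes 0.05. JUN, at 0.03 with an interval of -0.33 to 0.38, JUND, at -0.10 with an interval of -0.29 to 0.08, and FOSL1, at 0.20 with an interval of -0.00 to 0.41, did not pass. EGR2 had its highest mean of the 6 conditions in ctrl-KO (9.42 CPM), whereas EGR1 (321 CPM) and EGR3 (5.95 CPM) had theirs in OE conditions. With leave-one-out, FOSL2 lost its call without replicate number 2, 3, 4 or 5 or without ctrl-OE replicate 6, EGR2 without number 4 or 5 and EGR3 without number 2. Of the 9 neural stem cell markers 7 passed as well, all lower in ctrl-OE. The vectors, the number of viruses and the recruited activators differ between the systems together, and their parts in these differences cannot be told apart.

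The spread of these genes between libraries of 1 condition was wide. The biological coefficient of variation (the spread left after counting error, estimated by edgeR over all conditions) was 40.2% for EGR1, and 99.9% of 974 genes of like level (within 0.5 on the log2 scale) had a smaller one, with a median of 6.24%. It was 31.5% for JUNB, 27.7% for EGR2, 25.7% for FOS, 24.8% for EGR3 and 21.4% for JUN, each larger than that of at least 96.9% of genes of like level. FOSL2, FOSL1 and JUND, at 11.9%, 11.4% and 11.1%, were less variable, above 81.2%, 78.7% and 86.4% of such genes, and FOSB at 16.8% was above 77.3%. The genes that were called against a MEIS control were thus 2 of the 3 with the smallest spread and EGR2. This coefficient is 1 value per gene for all conditions, and the spread differed between conditions. The SD relative to the mean CPM was 12.3% in ctrl-OE and 56.1% in ctrl-KO for EGR1 and 8.89% and 39.6% for FOS. For JUNB it was 53.9% in ctrl-OE and 38.0% in ctrl-KO.

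**Figure D3:**
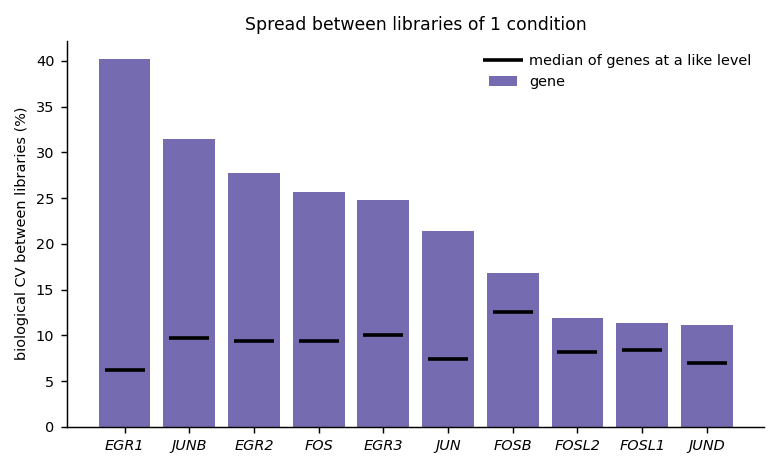
Biological coefficient of variation between libraries of 1 condition, estimated over all conditions, in percent, for each gene (bar, from 0). The black line is the median of genes within 0.5 of that gene's level on the log2 scale. EGR1 stands at 40.2% over a line at 6.24%, whereas FOSL1 stands at 11.4% over a line at 8.36%.

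In the KO conditions the spread of EGR1 followed the replicate number. The replicates 1 to 6 of ctrl-KO were at 176, 60.1, 67.4, 225, 141 and 66.6 CPM, those of MEIS1-KO at 156, 65.0, 48.1, 174, 128 and 55.4 CPM, and those of MEIS2-KO at 171, 46.5, 55.1, 149, 119 and 43.7 CPM. Numbers 1, 4 and 5 were thus high, at 119 CPM or more, and numbers 2, 3 and 6 low, at 67.4 CPM or less, in all 3 conditions, a split that was noticed in these values. The deviation of EGR1 from the mean of its condition had the same sign in the 3 KO conditions at 6 of 6 numbers, as that of EGR2 did, and that of FOS at 5 of 6. Over 13464 genes with a mean of at least 1 CPM the median was 2 numbers, and 4.48% of genes had 5 or 6. The mean deviation of EGR1 ranged over 1.72 on the log2 scale between the numbers, and 0 of the 13464 genes had a larger range, against a median range of 0.234. EGR2, EGR3 and FOS followed with 1.27, 1.21 and 1.20, exceeded by 9, 13 and 14 genes, and JUNB with 1.07, exceeded by 31. For FOSL1 and JUND the range was 0.22 and 0.20, exceeded by 7071 and 8158 genes. The labels do not say what the libraries of a number share.

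**Figure D4:**
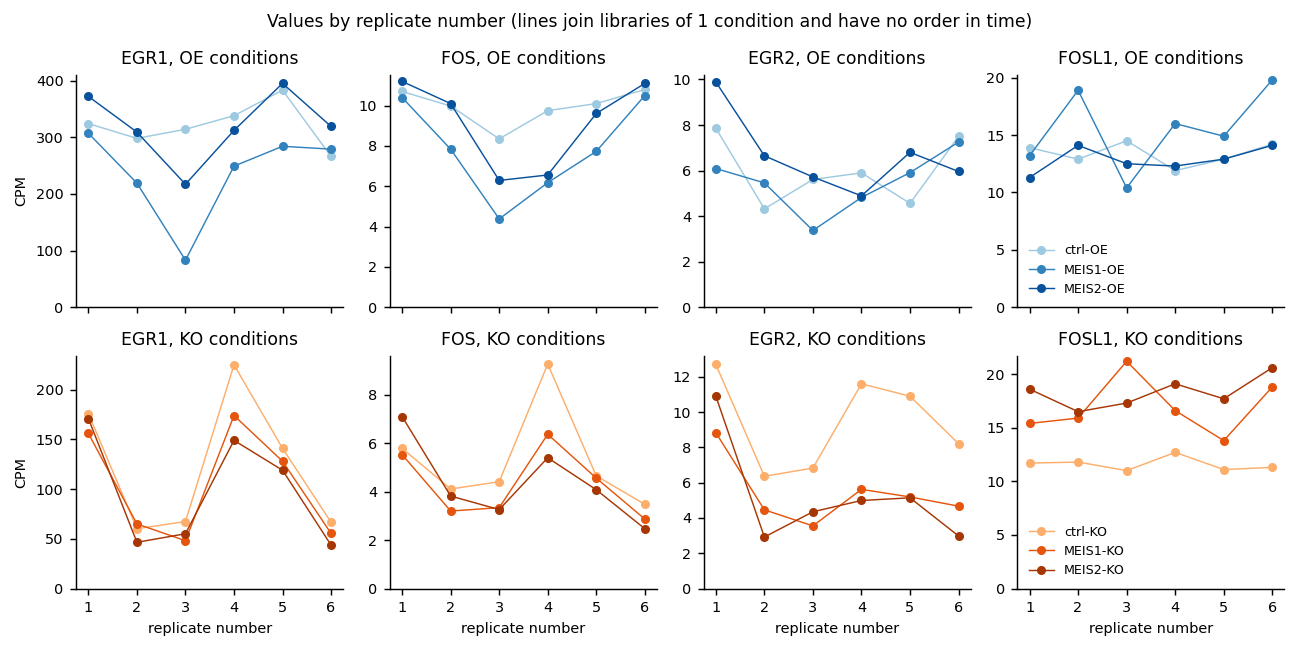
Level in CPM of EGR1, FOS, EGR2 and FOSL1 by replicate number, with a line for each condition of the OE system (top) and the KO system (bottom), on axes that start at 0; the numbers have no order. The EGR1 lines of the 3 KO conditions run together, from 119 to 225 CPM at numbers 1, 4 and 5 and from 43.7 to 67.4 CPM at numbers 2, 3 and 6, and those of FOSL1 do not.

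In the OE conditions FOS had the same sign at 6 of 6 numbers and JUND at 5, compared with a median of 2 over all genes and 6.13% of genes at 5 or 6, and EGR1 at 3. Number 3 was low there for FOS, with 8.35 CPM in ctrl-OE, 4.38 CPM in MEIS1-OE and 6.29 CPM in MEIS2-OE, each the lowest of its condition. Number 6 was high for JUN, with 40.7, 57.2 and 47.9 CPM in the same order, each the highest of its condition. For EGR1, number 6, which was low in the KO conditions, had 266 CPM in ctrl-OE, 279 CPM in MEIS1-OE and 319 CPM in MEIS2-OE.

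Across the 36 libraries, with the mean of each condition removed, the genes most like FOS were EGR1 (Pearson's r 0.85) and EGR2 (0.74), and EGR1 and EGR2 had an r of 0.76. These values describe 36 libraries that share cells, systems and replicate numbers, and EGR1 falls into 2 sets in the KO conditions. Within the 18 OE libraries the r of EGR1 was 0.74 with FOS and 0.54 with EGR2, and within the 18 KO libraries 0.90 and 0.84. JUN followed EGR1 with an r of 0.55 and EGR3 with 0.42, whereas FOSB (-0.04), JUND (-0.05) and FOSL1 (0.09) did not. Outside the set, the genes most like EGR1 were AL832891 (0.75), CHORDC1 (0.73), HSPA8 (0.69), ZNF774 (0.68) and CTC1 (0.67). HSPA8 encodes a heat shock cognate chaperone and CHORDC1 a cochaperone of HSP90. In the KO conditions CHORDC1 was at 43.6 to 53.2 CPM at numbers 1, 4 and 5 and at 36.6 to 43.3 CPM at numbers 2, 3 and 6, and HSPA8 at 1470 to 1760 CPM and 1190 to 1470 CPM. Both genes were picked for their r with EGR1 in the same libraries, and the split by number was read from EGR1. That they follow these numbers therefore comes from the choice and is no separate result. AL832891, ZNF774 and CTC1 were picked in the same way and are not shown by number. The r of EGR1 with HSPA8 was 0.48 in the OE and 0.83 in the KO libraries. The part of HSPA8 and CHORDC1 in the spread of EGR1 was not tested. Of 10 heat shock genes, 0 passed in MEIS1-OE, MEIS2-OE and MEIS1-KO by edgeR (1, 0 and 1 with an unadjusted p under 0.05, and 0, 0 and 1 by DESeq2) and 1 rose in MEIS2-KO, BAG3. Among all tested genes 9.1%, 1.35%, 1.46% and 10.0% passed in the order MEIS1-OE, MEIS2-OE, MEIS1-KO and MEIS2-KO. The sum of the heat shock genes was 4650 to 5130 CPM in ctrl-KO, 4560 to 5580 CPM in MEIS1-KO and 4390 to 5270 CPM in MEIS2-KO. The genes most like FOS outside the set were RRP7B (0.69), AL832891 (0.68), CTC1 (0.64), TMEM38A (0.63) and C3orf18 (0.62). FOSL1 went with other genes: TFE3 (0.86), SLC2A1 (0.83), SYDE1, PSMC4 and SH3BGRL3 (0.81 each). Within the set its r was 0.67 with FOSL2 (rank 407 among all genes), 0.59 with JUNB (rank 1368), 0.58 with FOSB (rank 1515) and 0.53 with JUN (rank 2163).

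Genes of the factors and kinases that act upstream of immediate early genes passed most often in MEIS2-KO among the MEIS conditions. Of 22 such genes, which include SRF, the ELK factors, CREB1 and the ERK, JNK and p38 kinases, 2 passed in MEIS1-OE (1 higher, 1 lower), 0 in MEIS2-OE and in MEIS1-KO (1 and 4 with an unadjusted p under 0.05, 0 by DESeq2) and 6 in MEIS2-KO (2 higher, 4 lower), with list medians between -0.02 and 0.00. The shares of all tested genes that passed were 9.1%, 1.35%, 1.46% and 10.0% in the order MEIS1-OE, MEIS2-OE, MEIS1-KO and MEIS2-KO. In MEIS2-KO MAPK10, which encodes the neural JNK3, was lower by 0.36 on the log2 scale (SE 0.11, adjusted p = 0.0241) and CREB1 by 0.18 (SE 0.06, adjusted p = 0.0396), whereas ELK3, a partner of SRF, was higher by 0.22 (SE 0.07, adjusted p = 0.0467). In MEIS1-OE CREM was higher by 0.26 (SE 0.06, adjusted p = 0.0039) and RPS6KA5, the kinase MSK1, lower by 0.39 (SE 0.10, adjusted p = 0.00563). Between ctrl-OE and ctrl-KO 15 of 22 passed, 10 higher and 5 lower, where 51.4% of all tested genes did. MAPK10 was at a mean of 55.5 CPM in ctrl-OE and 238 CPM in ctrl-KO, and SRF was lower by 0.29 (SE 0.08, adjusted p = 0.00172) in ctrl-OE.

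Of 13 feedback genes, the DUSP phosphatases that switch off MAP kinases and the NAB repressors of EGR proteins, 4 rose in MEIS1-OE, 0 passed in MEIS2-OE by edgeR (2 with an unadjusted p under 0.05, 0 by DESeq2), 1 rose in MEIS1-KO and 3 passed in MEIS2-KO (2 higher, 1 lower), beside 9.1%, 1.35%, 1.46% and 10.0% of all tested genes in the same order. NAB2, itself an EGR target, rose by 0.30 (SE 0.09, adjusted p = 0.0263) and DUSP5 by 0.30 (SE 0.09, adjusted p = 0.0371) in MEIS1-OE. DUSP14 rose in both knockouts, by 0.30 (SE 0.05, adjusted p = 4.9e-04) in MEIS1-KO and 0.42 (SE 0.05, adjusted p = 4.2e-07) in MEIS2-KO, and was lower in the contrast of either MEIS gene. The median of the list was 0.19 in MEIS1-OE and 0.03 and 0.08 in the knockouts.

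Of the other partners that AP-1 proteins can dimerize with, ATF3, a stress-induced factor, rose in both knockouts. Of 14 genes, 2 rose in MEIS1-OE, 0 passed in MEIS2-OE by edgeR (1 with an unadjusted p under 0.05, 0 by DESeq2), 1 rose in MEIS1-KO and 2 rose in MEIS2-KO, with list medians of 0.01, 0.01, 0.16 and 0.17, where 9.1%, 1.35%, 1.46% and 10.0% of all tested genes passed. ATF3 had a mean of 37.1 CPM in ctrl-KO, 55.7 CPM in MEIS1-KO and 59.2 CPM in MEIS2-KO, log2 fold changes of 0.59 (SE 0.10, adjusted p = 8.7e-04) and 0.67 (SE 0.10, adjusted p = 2.6e-05). BATF2 rose in MEIS1-OE by 0.65 (SE 0.15, adjusted p = 0.00228), from a mean of 2.62 to 4.10 CPM, and in MEIS2-KO by 0.83 (SE 0.22, adjusted p = 0.0119), from 0.735 to 1.31 CPM. Unlike FOS, FOSB and JUNB, ATF3 was lower in ctrl-OE than in ctrl-KO, by 1.13 on the log2 scale (SE 0.11, adjusted p = 9.7e-12).

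Among 35 other immediate early genes 6 passed in MEIS1-OE (5 higher, 1 lower), 2 rose in MEIS2-OE, 4 rose in MEIS1-KO and 9 rose in MEIS2-KO, with list medians of 0.14, 0.09, 0.17 and 0.13, where 9.1%, 1.35%, 1.46% and 10.0% of all tested genes passed. PLK2, a polo-like kinase induced by serum, rose in MEIS1-OE by 0.64 (SE 0.07, adjusted p = 4.0e-09), in MEIS2-OE by 0.50 (SE 0.07, adjusted p = 3.7e-06) and in MEIS1-KO by 0.35 (SE 0.07, adjusted p = 0.00319). HBEGF, a ligand of the EGF receptor, rose by 0.61 (SE 0.11, adjusted p = 0.00104) in MEIS1-KO and 0.58 (SE 0.11, adjusted p = 5.2e-04) in MEIS2-KO, and IER3 by 0.51 (SE 0.14, adjusted p = 0.0484) and 0.70 (SE 0.14, adjusted p = 9.0e-04). HBEGF was lower in the contrast of MEIS1 (-0.72, SE 0.15) and of MEIS2 (-0.59, SE 0.15), with adjusted p values of 0.00172 and 0.0176. KLF10 rose in MEIS1-OE by 0.56 (SE 0.12, adjusted p = 9.2e-04). Between the controls 24 of 35 passed, 13 higher and 11 lower, beside 51.4% of all tested genes, and CSRNP1, HBEGF and GADD45B were higher in ctrl-OE by 2.08, 1.64 and 1.49 on the log2 scale.

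Textbook AP-1 targets had higher list medians in both knockouts than the lists above. Of 21 genes 17 were tested, and 4 rose in MEIS1-OE, 0 passed in MEIS2-OE by edgeR (3 with an unadjusted p under 0.05, 0 by DESeq2), 5 rose in MEIS1-KO and 10 passed in MEIS2-KO (9 higher, 1 lower). The medians were 0.10, 0.07, 0.68 and 0.83, compared with -0.01 to 0.00 over all tested genes, of which 9.1%, 1.35%, 1.46% and 10.0% passed. SPP1, osteopontin, rose by 0.71 (SE 0.13, adjusted p = 0.0019) in MEIS1-KO and by 0.96 (SE 0.13, adjusted p = 1.0e-05) in MEIS2-KO. CD44, a hyaluronan receptor, rose in MEIS2-KO by 0.94 (SE 0.13, adjusted p = 5.1e-06) and in MEIS1-OE by 0.46 (SE 0.13, adjusted p = 0.0165). In MEIS1-OE the cytokine IL11 rose by 1.26 (SE 0.12, adjusted p = 2.4e-10), from a mean of 27.7 to 66.4 CPM. Of the 17 tested, 4 were lower in the contrast of MEIS2, where 2.57% of all tested genes passed in either direction. SPP1 (-0.89, SE 0.19) and PLAU (-0.85, SE 0.18) were among them. These genes answer to other factors as well, and whether AP-1 acts on them here was not tested. Of the 5 mesenchymal markers, COL1A1 rose in the same knockouts, by 0.82 (SE 0.22, adjusted p = 0.0408) and 1.06 (SE 0.22, adjusted p = 0.00114), while the summed level of the 5 was 597 to 776 CPM in ctrl-KO, 678 to 958 CPM in MEIS1-KO and 655 to 849 CPM in MEIS2-KO, and its part in these results was not tested.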

How the data were processed

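RNA-seq of hNSC was deposited by the authors as raw counts of reads per gene symbol, without normalization, in 36 libraries. Per the labels, stranded poly-A libraries were read 100 bases from both ends. The processing notes name Trimmomatic 0.39, STAR 2.7.0a and hg19, the design text STAR 2.4.2a and HTSeq 0.6.0, and the annotation and strand setting of the counting are not given in the sources used here. Libraries were grouped by the treatment and replicate in their labels.

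Genes with at least 10 counts over all libraries were fitted in 1 model of 6 groups with edgeR 4.0.16 (limma 3.58.1, R 4.3.3), TMM and a prior count of 0.125, and tested two-sided by the quasi-likelihood test in 9 comparisons, with p adjusted after Benjamini and Hochberg over all tested genes. Depth was 15429985 to 22940493 counts per library. CPM are TMM-scaled, and deviations between libraries were taken on log2 CPM (prior count 2). Intervals are 95% normal intervals from the fold change and its SE. The procedure was tested on simulated data. Python 3.11.15 with numpy 2.4.6, pandas 2.3.3 and matplotlib 3.10.9 was used for the summaries.

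All 10 genes are described, and from each gene list at most 3 rising and 3 falling called genes per comparison, by the size of their change, at a mean of at least 1 CPM. The values of 1 listed gene are not reported here. Per gene FOS, EGR1 and FOSL1, the 5 genes outside the set with the highest r are named. The members and lists were chosen with earlier results of these data known. The reported fit has no term for the replicate number. Libraries with the same number counted as pairs where all 6 pairs had a correlation of deviations above 0.1 over 13464 genes. This held for MEIS2-OE with ctrl-OE (0.215 to 0.583, mean 0.387) and for no other comparison tested. For MEIS2-OE the fit with the replicate block is therefore given beside the reported one. The alternatives were RLE size factors, filterByExpr, no filter, DESeq2 1.42.0, a prior count of 2, the replicate block, a fit of just the 2 or 4 groups in question, leaving out each replicate number, and a limit of 0.58 on the absolute log2 fold change. Leaving out MEIS1-OE replicate 3 or ctrl-OE replicate 6, and the block within the groups compared, were added after seeing the data.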

Additional observations from a re-analysis of the deposited data

Results flagged for a closer look

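In 5 of the 60 sets of 6 libraries (10 genes in 6 conditions) 1 library stood apart from the rest by Dixon's test, and chance flags about 1 in 20 sets. JUNB was at 14.2 CPM in ctrl-OE replicate 6, where the next library had 7.03 CPM, and JUND was at 65.0 CPM in the same library, where the next had 48.6 CPM. In MEIS2-KO replicate 1 EGR2 was at 10.9 CPM, with the next library at 5.14 CPM, and EGR3 at 3.48 CPM, with the next at 1.81 CPM. FOSB was at 0.926 CPM in MEIS2-KO replicate 6, where the next library had 0.629 CPM.

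The effect of MEIS2 activation on FOSL1 differed from that of MEIS2 knockout by -0.71 on the log2 scale (adjusted p = 0.00295 by edgeR's quasi-likelihood test of the contrast), with -0.05 in MEIS2-OE and 0.66 in MEIS2-KO.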

How the results depend on the processing

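Over 1440 values of the 10 genes under the 16 alternatives that give each gene a value, 0 of the called values changed sign, 11 calls were lost and 38 gained, and 45 uncalled values changed sign. The limit on the fold change, the remaining alternative, removed 5 of the 14 calls, 4 of FOSL2 and that of FOSL1 in MEIS1-KO. In MEIS1-OE 1 gene was called as reported, 2 with filterByExpr (FOSL2 and JUN), 3 without MEIS1-OE replicate 3 (FOSL1, FOSL2 and JUN), 3 without ctrl-OE replicate 6 (FOSL2, JUN and JUND) and 0 with the limit on the fold change. In MEIS2-OE 0 were called as reported and 1 by DESeq2. In MEIS1-KO 2 were called as reported and 0 with that limit, and in MEIS2-KO 3 as reported and 5 in a fit of only the groups compared (JUN and JUND besides). MEIS1-OE against MEIS2-OE gave 0 as reported and 1 without MEIS1-OE replicate 3 (FOSL1). Leaving out each replicate number in turn gave 1 to 3 calls in MEIS1-OE (3 without number 3 or 6), 0 to 0 in MEIS2-OE, 1 to 3 in MEIS1-KO (1 without number 3, 3 without number 1), 2 to 3 in MEIS2-KO (2 without number 4 or 5), 5 to 8 between the controls, 0 to 1 between the OE conditions, 1 to 2 in the MEIS2 contrast (2 without number 1) and 0 in the other comparisons.

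With the replicate number as a block, 2 genes were called in MEIS1-OE (FOSL2 and JUN), 1 in MEIS2-OE (FOSL2), 3 in MEIS1-KO (EGR2 besides), 5 in MEIS2-KO (EGR2, EGR3, FOSL1, FOSL2 and JUN) and 3 in the MEIS2 contrast (EGR2, EGR3 and FOSL1). With the block in a fit of only the groups compared, the counts were 2 in MEIS1-OE, 2 in MEIS2-OE, 7 in MEIS2-KO (EGR1 and JUND besides), 1 for MEIS1-OE against MEIS2-OE (EGR1) and 3 in the MEIS2 contrast. Outside MEIS2-OE with ctrl-OE the rule for pairs was not met, and what libraries of a number share is not known. Between ctrl-KO and each knockout 4 of 6 pairs had a correlation above 0.1. Of the ctrl-KO libraries 5 of 6 correlated best with their own number in MEIS2-KO and 3 of 6 in MEIS1-KO. The causes of these shifts were not tested. FOSB had 6 to 19 reads per KO library, JUNB as few as 17 in ctrl-KO and EGR3 as few as 23 in MEIS1-KO. How far counting error or the spread between libraries limited each gene was not tested.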
